A study of Gallus gallus with 6 samples.

Results

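The protein genes of the cytosolic ribosome were examined in the jejunum of 6 Korat chickens. They were picked by symbol from the 24356 genes listed, as RPL or RPS with a number, RPLP with a number, or *RPSA*, and the ribosomal S6 kinases and all symbols ending in L1 were left out. This gave 69 genes: 42 named for the large subunit, 26 for the small subunit, and *RPS19BP1*, which encodes a protein that binds *RPS19* and is not itself part of the ribosome. No row had the symbol *RPSA*. Of 79 protein symbols of the human cytosolic ribosome, counted without *RACK1*, 65 were among the 69 genes, 2 were listed outside the symbol rule, and 12 had no row under that symbol, where 10487 of the listed genes carried no symbol. The 69 genes lay on 28 chromosomes or scaffolds of the GRCg6a genome, 10 of them on chromosome 1 and 3 on the Z chromosome.

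The Korat chicken is a slow-growing cross of a Thai indigenous line and a broiler line, and the feed conversion ratio (FCR) is the feed eaten per unit of weight gained. The low-FCR group held L1, L2 and L3, and the high-FCR group held H1, H2 and H3. All were Korat chickens of 10 weeks, raised with unlimited access to feed. The study's methods describe them as males from individual cages that lay at the extremes of one flock. According to the same methods, they were fasted for some hours before the jejunum was taken. RNA came from whole sections of jejunum, with 1 library per bird and no treatment, so each group is 3 separate birds chosen for their FCR. The title of H3 says low-FCR although its code and the study's summary of reads per bird place it in the high-FCR group, and it was kept there.

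A ribosome holds 1 copy of nearly every one of its proteins, and the genes for these proteins, scattered over the genome, are known for being expressed together at high levels. Their mRNAs start with a run of pyrimidines (the TOP motif), through which the TOR pathway controls their translation in animal cells. In the intestine, dividing crypt cells make ribosomes for growth, and the absorptive cells of the villi use them to make digestive enzymes and transport proteins.

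Total counts ranged from 10436038 in L3 to 11370043 in H3, and 3 counts corresponded to 0.249 to 0.304 CPM. Levels compared between birds are CPM, the counts scaled to a common library size with trimmed-mean (TMM) factors, and levels compared between genes are FPKM, which are per kilobase of exon. L1 stood apart from the other birds: its W-linked genes held 16140 counts, against 48 to 80 counts in each of the other 5, although the W is the female-specific chromosome and the study's methods describe males. L1 and H3 are therefore also left out in turn below. In whole tissue, fewer cells of a type and less RNA per cell cannot be told apart, and intervals from counts cover counting error only.

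The ribosomal protein genes took 4.53%, 3.53% and 4.06% of all counts in birds L1 to L3, against 3.36%, 3.29% and 4.26% in birds H1 to H3. The widest 95% Wilson interval of these shares was 4.52 to 4.54%, so the birds differed by more than counting error. The mean share was 4.04% ± 0.50 over the low-FCR birds and 3.64% ± 0.542 over the high-FCR birds (SD, n = 3 each), and the ranges overlapped because H3 lay above L2 and L3. The difference of 0.406 percentage points was smaller than either SD. Without L1 the low-FCR mean was 3.80%, and without H3 the high-FCR mean was 3.32%. With the counts of the mitochondrial genome taken out of the total, the shares were 5.28%, 4.10% and 4.46% in birds L1 to L3, against 3.73%, 3.73% and 4.91% in birds H1 to H3.

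Levels per exonic length spread widely among the genes. The highest were *RPL23*, whose protein lies at the interface of the subunits, with a mean of 1802 FPKM over the 6 birds, and *RPS10*, a small-subunit protein near the mRNA entry, with 1435 FPKM. *RPL23* had 1777, 1749 and 1879 FPKM in birds L1 to L3, against 1727, 1631 and 2049.7 FPKM in birds H1 to H3. *RPS10* had 1811, 1413 and 1311 FPKM in birds L1 to L3, against 1216, 1240.2 and 1622 FPKM in birds H1 to H3. Both were highest or next to highest in H3, and the groups overlapped. *RPS19*, the gene first linked to Diamond-Blackfan anaemia in humans, had 1326 FPKM and the stalk gene *RPLP1* 1300.0 FPKM. At the low end were *RPS19BP1* with 15.3 FPKM, *RPS21* with 20.4 FPKM, *RPL26* with 66.0 FPKM and *RPS27L* with 66.7 FPKM. Their annotated exonic sizes were 1912, 2528, 1396 and 2291 bases in the same order, against 586 bases for *RPL23* and 593 bases for *RPS10*. FPKM are divided by that size, and its part in the order of the genes was not tested. The order of the genes by FPKM was nearly the same in every bird, with a Spearman rho between 0.925 and 0.990 for the 15 pairs of birds, given as a description because the genes share each library. The median exonic size of the tested ribosomal protein genes was 1019.5 bases, against 2249.5 bases for all genes tested.

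**Figure D1:**
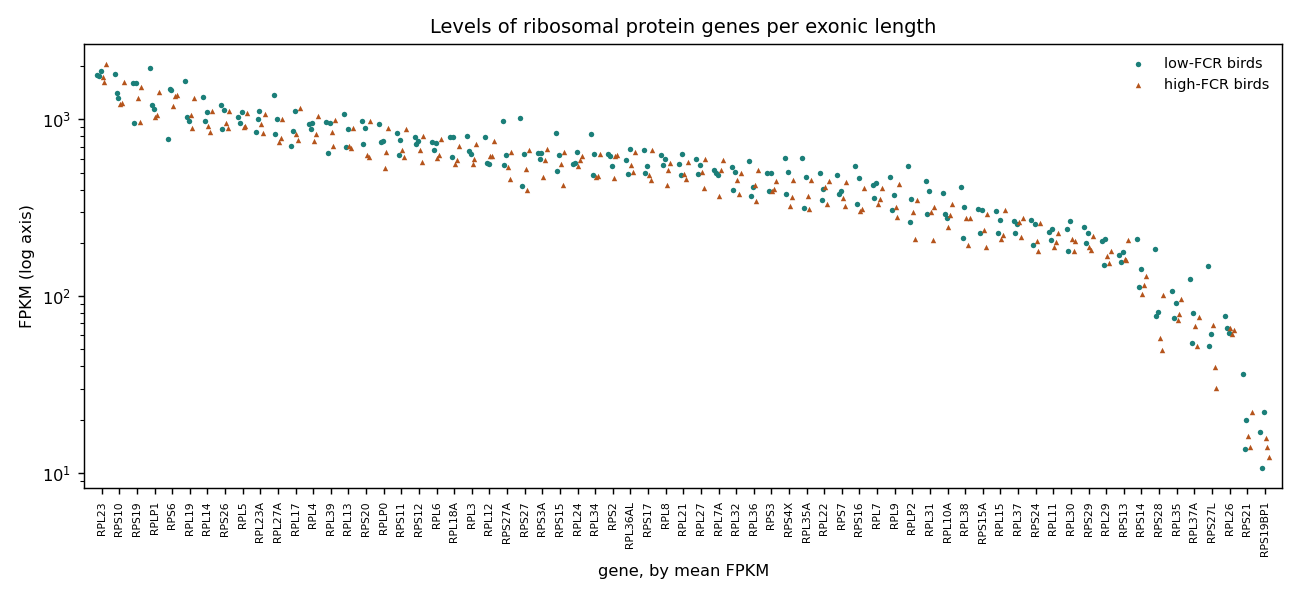
FPKM (log axis) of the tested genes, with 1 left out of the plot, in each bird, ordered by their mean over the 6 birds; circles are the low-FCR birds and triangles the high-FCR birds. *RPL23* stands first with a mean of 1802 FPKM, *RPS21* and *RPS19BP1* last with 20.4 and 15.3 FPKM, and the groups overlap at each gene.

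Across birds the genes moved together. Each gene was expressed as the deviation of its log2 CPM from its own mean over the 6 birds, and the median deviation of the 68 genes was 0.48, -0.13 and 0.04 in birds L1 to L3, against -0.20, -0.32 and 0.15 in birds H1 to H3. L1 was thus highest and H3 next, both above L3, while L2, H1 and H2 lay below the mean. The mean of these medians was 0.13 ± 0.317 over the low-FCR birds and -0.12 ± 0.246 over the high-FCR birds (SD, n = 3 each), a difference smaller than the pooled SD within groups of 0.284. L1 was the highest of the 6 birds for 62 of the 68 genes (91.2%), against 26.1% of all genes tested. H3 was next to highest for 46, H2 was lowest for 44 and H1 for 19. L2 lay below H3 at 65 of the 68 genes and L3 below H3 at 51. Over all 14282 genes tested, H3 was next to highest for 2438, H2 lowest for 2211 and H1 lowest for 1471. L2 lay below H3 at 7074 of all genes tested and L3 at 6862. These ranks are of CPM and depend on the scaling, since L1 had the lowest TMM factor of the 6 birds (0.870). By FPKM, which carry no TMM factor, L1 was not the highest bird at some of the 68 genes. *RPL4*, *RPL5* and *RPL37* were among them, and their full number was not counted. The share of all counts, which carries no TMM factor either, was still highest in L1.

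**Figure D2:**
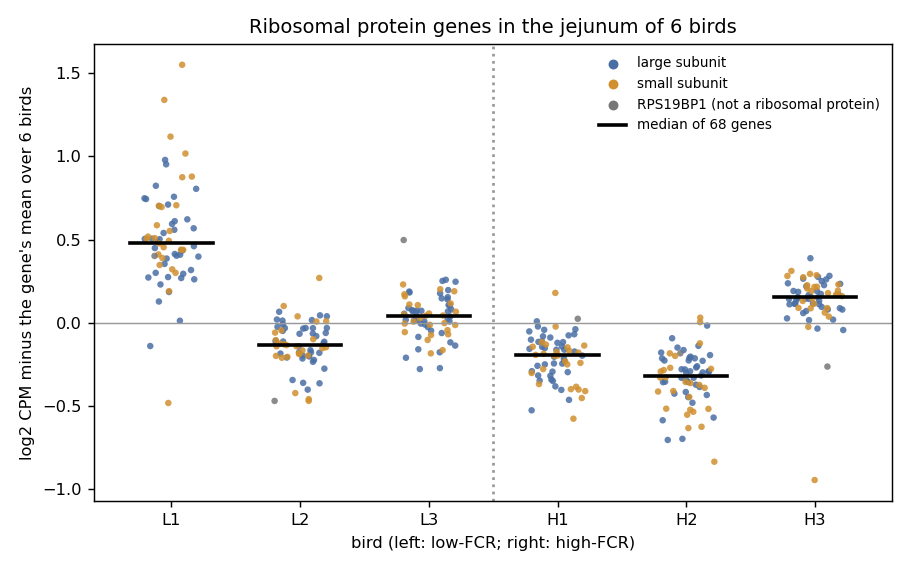
Deviation of log2 CPM from the gene's mean over 6 birds, for each of the 68 tested genes (dots) in each bird, low-FCR birds to the left of the dotted line and high-FCR birds to the right; bars are medians. The medians are 0.48, -0.13 and 0.04 in birds L1 to L3, against -0.20, -0.32 and 0.15 in birds H1 to H3, so L1 and H3, from different groups, are the highest birds.

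Over the 6 birds the median Pearson r between the log2 CPM of 2 of these genes was 0.87 over 2278 pairs, and 0.78 without L1. This is a description of genes measured in the same libraries. For 61 of the 68 genes the median r with the others was over 0.7. The exceptions with the lowest values were *RPS6* at -0.57, *RPL17* at 0.31, *RPS19BP1* at 0.47, *RPL23A* at 0.52 and *RPS27L* at 0.59. Without L1 their median r was 0.47, 0.91, 0.16, 0.80 and -0.29 in the same order. The low values of *RPL17* and *RPL23A* and the negative sign of *RPS6* thus depended on L1. The spread of log2 CPM over the birds (SD) was largest for *RPS27L* at 0.867, *RPS28* at 0.766 and *RPS21* at 0.616, and smallest for *RPL24* at 0.116, *RPL23* at 0.165 and *RPL23A* at 0.168.

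The study asks which jejunal transcripts differ between birds of low and high FCR. None of the 68 ribosomal protein genes passed an adjusted p of 0.05 in the edgeR quasi-likelihood test, nor did any of the 14282 genes tested (0%), and the smallest adjusted p was 0.997. At an unadjusted p under 0.05 there were also 0 of the 68, against 3.24% of all genes tested, and the smallest unadjusted p was 0.0588 for *RPS27L*. DESeq2 called 0 of the 68 after adjustment, where 8 of the 14282 genes (0.056%) passed, and 1, *RPS27L*, at an unadjusted p under 0.05, where 4.09% of all genes were under it; limma and limma-voom called 0 of all genes after adjustment. None of the 68 genes had all birds of one group above all birds of the other, against 6.36% of all genes.

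The signs of the differences were nonetheless almost uniform. The log2 fold change (log2 FC, low-FCR over high-FCR) was positive for 67 of the 68 genes (98.5%), against 51.8% of all genes tested. Its median was 0.26, beside 0.02 for all genes, and it ran from -0.01 for *RPS6* to 1.08 for *RPS27L*. The median SE of a gene was 0.29, larger than the median difference. Both subunits showed this, with a positive value for 41 of 41 large-subunit genes (median 0.24) and 25 of 26 small-subunit genes (median 0.27). As the genes share the order of the birds, their signs are not separate pieces of evidence.

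**Figure D3:**
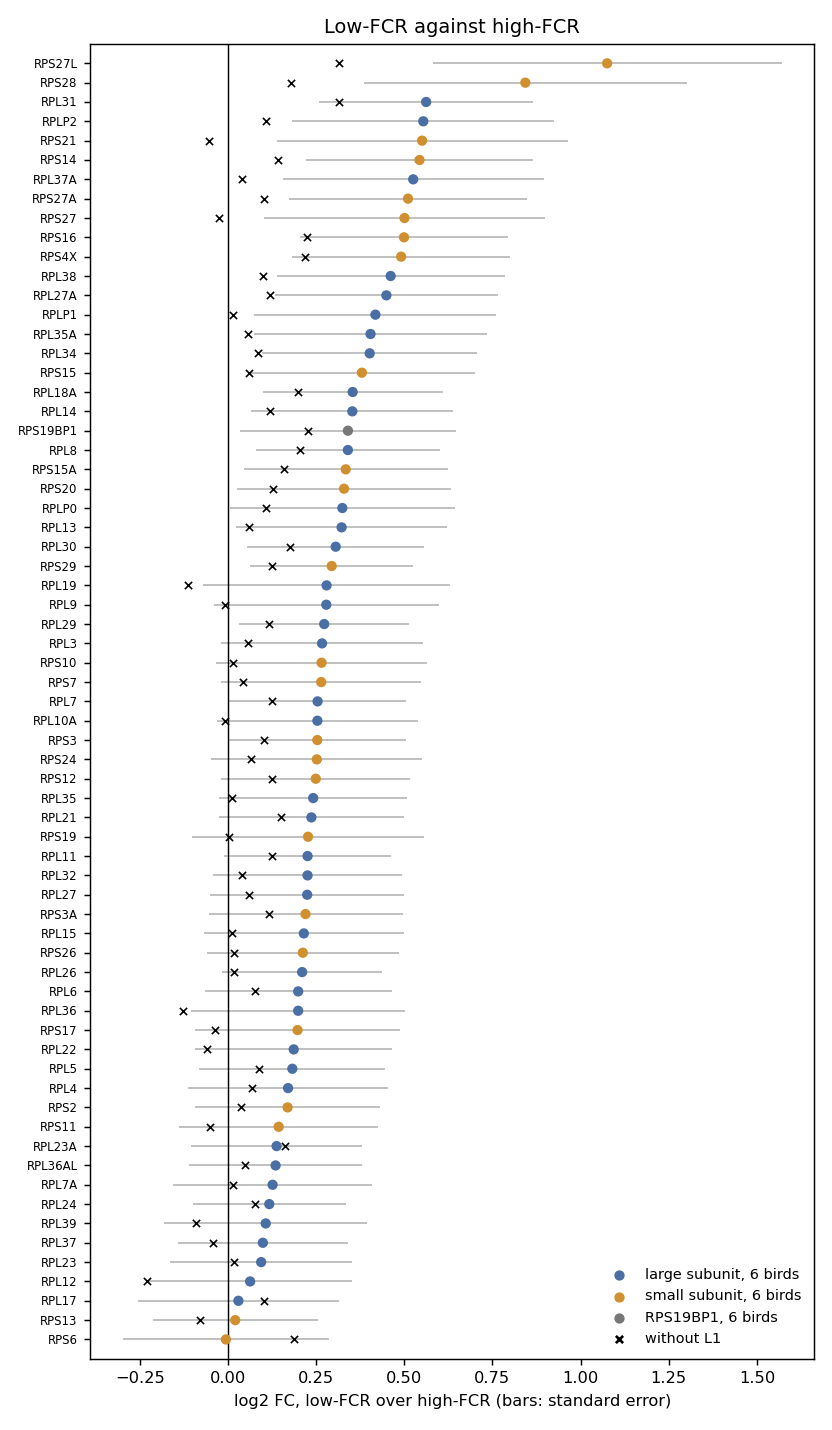
Log2 FC of low-FCR over high-FCR for the tested genes, with 1 left out of the plot, with bars of 1 SE (dots, coloured by subunit; *RPS19BP1* in grey), and the same without L1 (crosses). Over all 68 genes and 6 birds 67 values are above 0 and the median is 0.26; without L1 the median is 0.07 and 55 are above 0.

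The size of these differences depended on single birds. Without L1 the median log2 FC was 0.07 and 55 of 68 genes were positive (80.9%), against 49.6% of all genes, and 1 gene had groups that did not overlap, against 12.5% of all genes. Without H3 the median was 0.41, all 68 were positive, against 51.6% of all genes, and the groups did not overlap at 40 genes, against 13.9% of all genes. Without both L1 and H3 the median was 0.23, 67 were positive, against 50.6% of all genes, and 43 had groups that did not overlap, against 22.9%. With H3 grouped as low-FCR, the word in its title, the median was 0.42, all 68 were positive, against 51.9%, 40 had groups that did not overlap, against 9.71%, and 2 (*RPS20* and *RPS28*) had an unadjusted p under 0.05, against 2.18%. Without L2 the median was 0.35, 67 were positive, against 49.1%, 11 had groups that did not overlap, against 27.4%, and 1, *RPS27L*, had an unadjusted p under 0.05, against 9.91%. No gene of the set passed adjustment in any of these fits. Which of the labels of H3 holds was not tested.

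The P stalk is the arm of the large subunit that recruits elongation factors, built from *RPLP0* and pairs of *RPLP1* and *RPLP2*. *RPLP0* (chromosome 15, 9721482 to 9724691) had 1647, 1148 and 1096 CPM in birds L1 to L3, against 786, 944 and 1377 CPM in birds H1 to H3. *RPLP1* (chromosome 2, 145698580 to 145699798) had 1183, 638 and 577 CPM in birds L1 to L3, against 524, 521 and 749.9 CPM in birds H1 to H3. *RPLP2* (chromosome 5, 15988312 to 15993624) had 806, 344 and 437 CPM in birds L1 to L3, against 373, 256 and 451 CPM in birds H1 to H3. All 3 were highest in L1, and H3 lay above L2 and L3 at each of them. The log2 FC was 0.32 (SE 0.32, unadjusted p = 0.337) for *RPLP0*, 0.42 (SE 0.34, unadjusted p = 0.255) for *RPLP1* and 0.55 (SE 0.37, unadjusted p = 0.172) for *RPLP2*. Without L1 it was 0.11, 0.01 and 0.11 in the same order of genes.

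Among the other large-subunit genes, *RPL31*, whose protein sits at the exit of the nascent peptide tunnel, had the smallest p. *RPL31* (chromosome 1, 134671350 to 134676353) had 516, 293 and 376 CPM in birds L1 to L3, against 287, 194 and 321 CPM in birds H1 to H3. H3 lay between L2 and L3, and L2 was only slightly above H1. It averaged 395 ± 113 CPM over the low-FCR birds and 268 ± 65.6 CPM over the high-FCR birds (SD, n = 3 each). The log2 FC was 0.56 (SE 0.30, unadjusted p = 0.0987), and 0.32 without L1. *RPL19*, which forms a bridge to the small subunit, had 1694, 929.9 and 837 CPM in birds L1 to L3, against 909.7, 752 and 1189 CPM in birds H1 to H3. Its log2 FC was 0.28 (SE 0.35, unadjusted p = 0.447) with L1 and -0.11 without it. *RPL14* had 1028, 663 and 697 CPM in birds L1 to L3, against 591, 530.4 and 749 CPM in birds H1 to H3, with a log2 FC of 0.35 (SE 0.29, unadjusted p = 0.250). In both, L1 was highest and H3 next.

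*RPL3*, *RPL4*, *RPL5* and *RPL11* encode core proteins of the large subunit: *RPL3* reaches the peptidyl transferase centre, *RPL4* lines the exit tunnel, and *RPL5* and *RPL11* bind the smallest ribosomal RNA and can hold the p53 regulator MDM2. *RPL4* (chromosome 10, 18942659 to 18948763) had 2194, 1809 and 1843 CPM in birds L1 to L3, against 1485, 1580.5 and 2130.0 CPM in birds H1 to H3, so that H3 was within the low-FCR range. *RPL3* had 1378, 993 and 905 CPM in birds L1 to L3, against 799, 839 and 1085 CPM in birds H1 to H3. *RPL5* had 1535, 1238 and 1344 CPM in birds L1 to L3, against 1116, 1104 and 1407 CPM in birds H1 to H3. By CPM, L1 was highest and H3 next at each of the 3 genes. *RPL11* had 493, 393 and 425 CPM in birds L1 to L3, against 339, 355 and 428 CPM in birds H1 to H3, where H3 and L3 were nearly equal. The log2 FC of these genes was 0.27 for *RPL3*, 0.17 for *RPL4*, 0.18 for *RPL5* and 0.23 for *RPL11*, with an unadjusted p of at least 0.366.

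The steadiest genes were also large-subunit genes. *RPL24*, at a bridge between the subunits, had 330.0, 295 and 321 CPM in birds L1 to L3, against 269.9, 283 and 319 CPM in birds H1 to H3, and averaged 315 ± 18.4 CPM over the low-FCR birds and 291 ± 25.5 CPM over the high-FCR birds (SD, n = 3 each). The birds lay within a narrow range and overlapped. *RPL23A*, near the tunnel exit where targeting factors dock, had 607, 630.2 and 667 CPM in birds L1 to L3, against 569, 492 and 669.6 CPM in birds H1 to H3, with L1 below L2, L3 and H3. *RPL23* had 1199, 1036 and 1051 CPM in birds L1 to L3, against 975, 899 and 1204 CPM in birds H1 to H3. Its log2 FC of 0.09 was just under 0 under 2 other scalings. *RPL22*, an RNA-binding protein needed for T-cell development in the mouse, had 502, 311 and 339 CPM in birds L1 to L3, against 348, 273 and 391 CPM in birds H1 to H3, and a log2 FC of 0.19, or -0.06 without L1.

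**Figure D4:**
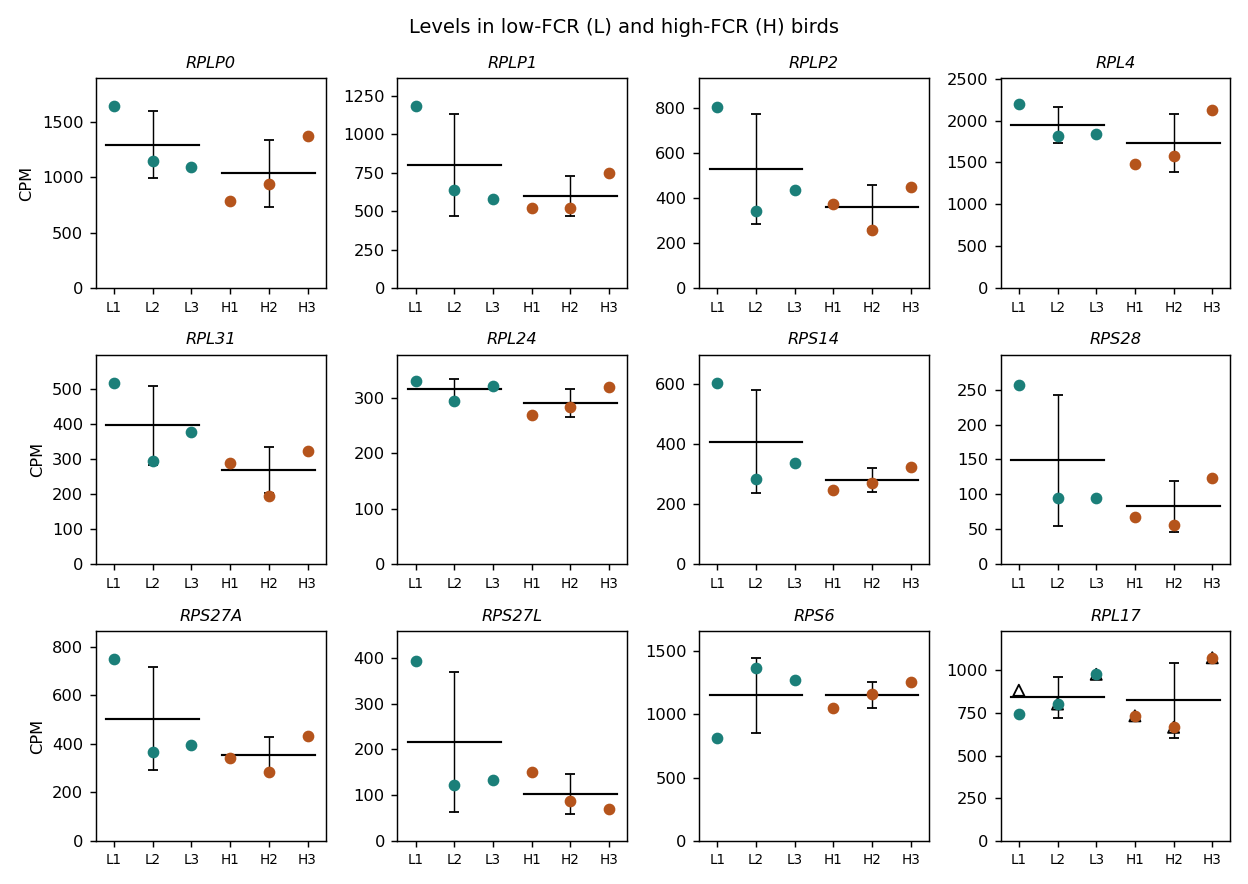
CPM of 12 genes in each bird (dots), low-FCR birds L1 to L3 to the left and high-FCR birds H1 to H3 to the right of each panel, with the mean of each group (horizontal line) and its SD (bar). L1 is the highest bird in every panel but *RPS6* and *RPL17*, and H3 lies above the lowest low-FCR bird in all of them except *RPS27L*; open triangles in the *RPL17* panel add the W copy, which is at 0 in every bird but L1.

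In the small subunit, *RPS28*, whose protein lies by the mRNA exit channel, had the largest log2 FC after *RPS27L*. *RPS28* (chromosome 28, 981982 to 983363) had 257, 94.3 and 94.3 CPM in birds L1 to L3, against 67.9, 56.8 and 124 CPM in birds H1 to H3. L1 was 2.94 times the mean of the other 5 birds, and H3 was above L2 and L3. It averaged 149 ± 93.9 CPM over the low-FCR birds and 82.8 ± 35.8 CPM over the high-FCR birds (SD, n = 3 each), with a log2 FC of 0.84 (SE 0.46, unadjusted p = 0.100) and of 0.18 without L1. *RPS21* had 106, 35.0 and 48.1 CPM in birds L1 to L3, against 39.3, 33.4 and 56.0 CPM in birds H1 to H3. Its log2 FC was 0.55 with L1 and -0.05 without it.

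*RPS14* encodes a protein of the small-subunit platform, near the leaving mRNA, and *RPS16* one of the head, whose tail reaches the bound tRNA. *RPS14* (chromosome 13, 13844163 to 13849165) had 602, 283 and 337 CPM in birds L1 to L3, against 246, 271 and 322 CPM in birds H1 to H3. *RPS16* (chromosome 1, 39833011 to 39835915) had 384, 205 and 271 CPM in birds L1 to L3, against 179, 179.6 and 250.5 CPM in birds H1 to H3. In both, L1 was highest, and H3 lay between L2 and L3. The log2 FC was 0.54 (SE 0.32, unadjusted p = 0.128) for *RPS14* and 0.50 (SE 0.29, unadjusted p = 0.125) for *RPS16*, and without L1 it was 0.14 and 0.22. *RPS3*, at the mRNA entry channel, had 669, 463 and 553 CPM in birds L1 to L3, against 446, 445 and 524 CPM in birds H1 to H3, again with H3 between L2 and L3, and a log2 FC of 0.25 (SE 0.25, unadjusted p = 0.340).

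*RPS10*, *RPS19* and *RPS6* were among the small-subunit genes with the highest levels per length, and *RPS6* is described with the Z-linked genes. *RPS10*, a target of the ubiquitin ligase that marks collided ribosomes, had 1236, 847 and 742 CPM in birds L1 to L3, against 695, 692 and 964 CPM in birds H1 to H3. L1 was highest and H3 next. *RPS19* had 1068, 559.7 and 881 CPM in birds L1 to L3, against 739, 524 and 881 CPM in birds H1 to H3, where L2 and H2 were the low birds and L3 and H3 were equal after rounding. Their log2 FC was 0.27 for *RPS10* and 0.23 for *RPS19*, and without L1 it was 0.01 and 0.00383.

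Some ribosomal proteins are made as fusions with ubiquitin or a ubiquitin-like protein. *RPS27A*, one such fusion (chromosome 3, 74821 to 76716), had 748, 368 and 395 CPM in birds L1 to L3, against 343, 285 and 434 CPM in birds H1 to H3. L1 was highest, and H3 was next. The log2 FC was 0.51 (SE 0.34, unadjusted p = 0.166), and 0.10 without L1. *FAU*, a fusion with a ubiquitin-like protein, lies outside the symbol rule and had 669, 394 and 381 CPM in birds L1 to L3, against 314, 303 and 405 CPM in birds H1 to H3 (log2 FC 0.50). L1 was its highest bird too, and L2 was nearly level with H3. *GNB2L1*, the small-subunit protein *RACK1*, had 1224, 1018 and 1116 CPM in birds L1 to L3, against 755, 807 and 1157 CPM in birds H1 to H3, and a log2 FC of 0.30. Of the 6 tested genes in the list of ribosomal proteins and paralogs outside the rule, 6 had a positive log2 FC, against 51.8% of all genes tested. Their median was 0.30, and 0 passed adjustment. That list leaves out *RPSAP58* and the rows without a symbol described as ribosomal proteins S25 and S23, whose log2 FC was 0.04, 0.23 and 0.08. It also leaves out the W-linked rows described as ribosomal protein L17, which are given below.

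*RPS27L* is a paralog of *RPS27* that p53 induces in human cells, and its median r with the other ribosomal protein genes was 0.59 over the 6 birds and, without L1, -0.29, the lowest of the 68. *RPS27L* (chromosome 10, 4594910 to 4600543) had 392, 121 and 133 CPM in birds L1 to L3, against 151, 86.0 and 69.3 CPM in birds H1 to H3. L1 was 3.50 times the mean of the other 5 birds, H3 was the lowest of all, and H1 lay above L2 and L3. It averaged 215 ± 153 CPM over the low-FCR birds and 102 ± 43.3 CPM over the high-FCR birds (SD, n = 3 each), with a log2 FC of 1.08 (SE 0.49, unadjusted p = 0.0588) and of 0.31 without L1. *RPS27* itself had 512, 184 and 262 CPM in birds L1 to L3, against 219.8, 164 and 293 CPM in birds H1 to H3. The paralog's share of the FPKM of the pair was 12.7%, 11.1% and 8.79% in birds L1 to L3, against 11.6%, 9.08% and 4.29% in birds H1 to H3, so that H3 was low in this share as well.

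Other paralogs took different shares. *RPL26L1*, left out by the rule on symbols, carried most of its pair with *RPL26*: between 90.8% and 93.5% of their FPKM in every bird. *RPL26L1* (chromosome 13, 9856065 to 9860391) had 903, 512 and 617 CPM in birds L1 to L3, against 495, 410.4 and 669.7 CPM in birds H1 to H3. *RPL26* had 124, 92.8 and 82.3 CPM in birds L1 to L3, against 88.7, 80.3 and 89.7 CPM in birds H1 to H3, so L1 was the highest bird for both. *RPL22L1* took between 24.6% and 30.5% of its pair with *RPL22*. *RPL3L*, the muscle paralog of *RPL3*, was the only one of the 69 genes under the filter of a mean of 0.5 FPKM. It had 2, 6 and 4 counts in birds L1 to L3, against 2, 1 and 3 counts in birds H1 to H3, sums of 12 and 6 that were too low for a comparison. Reads of near-identical copies could have been lost or misassigned in the mapping and counting, so the values of paralogs are uncertain.

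*RPS6*, the substrate of the S6 kinases downstream of TOR, went against the other genes over the 6 birds. Without L1 it did not, with a median r of 0.47. *RPS6* (chromosome Z, 33736390 to 33740880) had 813, 1370.1 and 1269 CPM in birds L1 to L3, against 1049, 1161 and 1257 CPM in birds H1 to H3. L1 was the lowest bird, and L2 and L3 were the highest. It averaged 1151 ± 297 CPM over the low-FCR birds and 1156 ± 104 CPM over the high-FCR birds (SD, n = 3 each), with a log2 FC of -0.00604 (SE 0.29, unadjusted p = 0.984), and of 0.19 without L1. *RPS6* is Z-linked, as are *RPL17* and *RPL37*, and over the other 649 Z-linked genes tested the median deviation was -0.47 in L1 and between 0.05 and 0.17 in the other 5 birds. Its part in the *RPS6* values was not tested.

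*RPL17*, which lines the peptide exit tunnel (chromosome Z, 1077920 to 1081538), had 745, 803 and 977 CPM in birds L1 to L3, against 733, 666 and 1074 CPM in birds H1 to H3. L1 was among the lower birds, and the groups overlapped. A W-linked gene described as ribosomal protein L17 (ENSGALG00000040263, chromosome W, 2397236 to 2407132) had 1370 counts in L1 and 0 in each of the other 5 birds, where 3 counts would be at most 0.0374% of the L17 counts. In L1 it held 15.7% of the summed Z and W counts (95% Wilson interval 15.0 to 16.5%), and with it the sum was 884 CPM, below L3 and H3. The log2 FC of the Z copy was 0.03 (SE 0.29, unadjusted p = 0.920), and it took either sign among the alternatives. The W gene had a log2 FC of 12.0 (edgeR unadjusted p = 0.0255, adjusted p = 0.997), which rests on L1 alone. *RPL37* (chromosome Z, 12917710 to 12920908) had 332, 247 and 264 CPM in birds L1 to L3, against 271, 219 and 298 CPM in birds H1 to H3. Its log2 FC was 0.10. By CPM its highest bird was L1, as in 61 of the 65 tested genes off chromosome Z. Another Z-linked ribosomal gene, with no symbol and described as ribosomal protein S23 (ENSGALG00000015617), had 419, 341 and 464 CPM in birds L1 to L3, against 354, 312 and 495 CPM in birds H1 to H3, with H3 highest.

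*RPS19BP1*, the match that is not a ribosomal protein, behaved differently from its neighbours in name. *RPS19BP1* (chromosome 1, 50591208 to 50594275) had 37.6, 20.5 and 40.2 CPM in birds L1 to L3, against 28.9, 25.1 and 23.7 CPM in birds H1 to H3. L3 and L1 were the highest birds and L2 the lowest, so the groups overlapped, and H3, high for most ribosomal protein genes, was low. The log2 FC was 0.34 (SE 0.31, unadjusted p = 0.298). *RPSAP58*, named as an *RPSA* pseudogene, was one of the most abundant rows, with 1835, 1923 and 1537 CPM in birds L1 to L3, against 1335, 1672 and 2153 CPM in birds H1 to H3. Its log2 FC was 0.04, and H3 was its highest bird. No row had the symbol *RPSA*, and whether the *RPSAP58* row holds the reads of that gene was not tested.

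Ribosomal protein genes are short, and short genes of other kinds also stood out in L1. Among other genes of at least 20 CPM with less than 0.7 kb of exon (171 genes), the median deviation was 0.60, -0.04 and -0.27 in birds L1 to L3, against -0.05, -0.29 and 0.09 in birds H1 to H3. The 21 ribosomal protein genes of that size had 0.52, -0.17 and 0.07, against -0.19, -0.35 and 0.15. Both sets were high in L1 and low in H2, while L3 was low only among the other short genes. Among other genes of 2 to 4 kb the median in L1 was -0.02, but the 6 ribosomal protein genes of that size had 0.93 there. Within the 68 genes the log2 FC hardly followed exonic size (Spearman rho 0.10, across genes of the same libraries). Offsets were also taken from the smoothed trend of deviation with exonic size over the other genes in each bird. With them, the median log2 FC of the set was 0.22 and 63 of 68 were positive. Exonic size is that of the annotated gene, and the length of the mRNAs present was not measured. What share of the L1 values goes with transcript length was not tested.

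**Figure D5:**
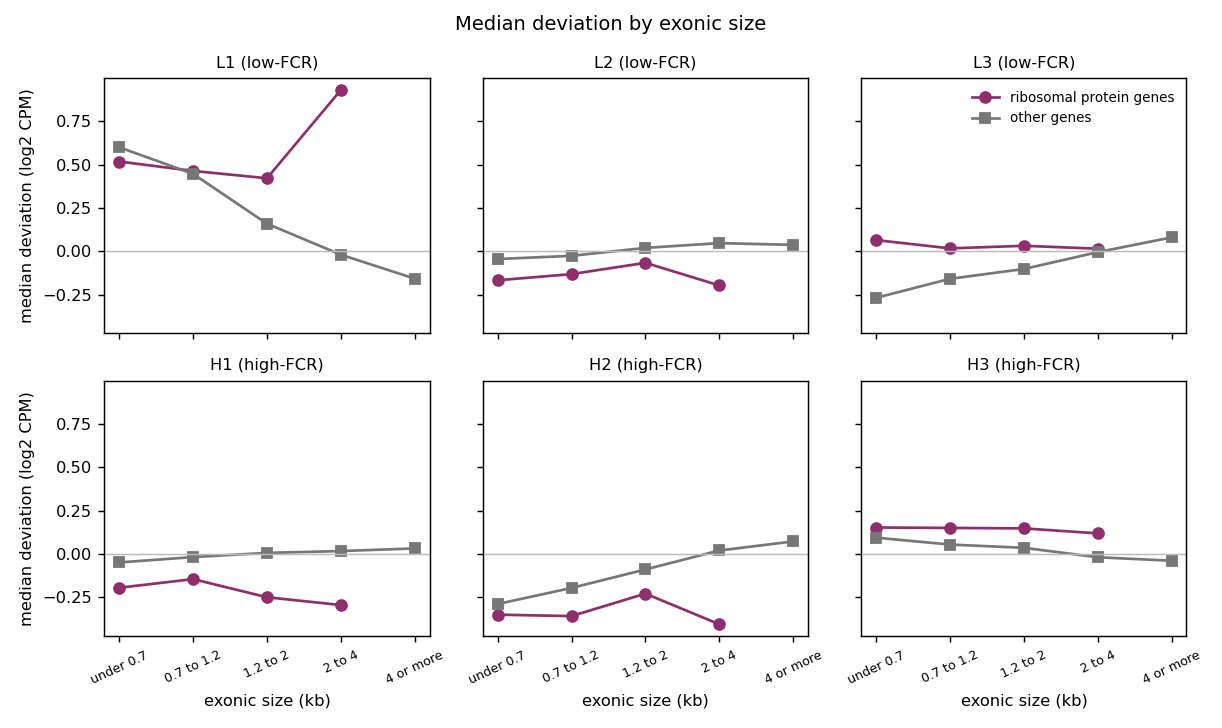
Median deviation of log2 CPM per bird (low-FCR birds in the upper row, high-FCR birds in the lower row) against exonic size, for ribosomal protein genes (circles) and other genes of at least 20 CPM (squares); classes with fewer than 5 genes are not drawn. In L1 the other genes run from 0.60 in the shortest class to -0.16 in the longest. The ribosomal protein genes have 0.42 to 0.52 there in the classes under 2 kb, and 0.93 in the class of 2 to 4 kb (6 genes).

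The lists of other translation genes followed the ribosomal protein genes over the birds to differing degrees. Mitochondrial ribosomal protein genes, which serve the ribosomes of the mitochondria, had a positive log2 FC at 54 of 70 genes with a median of 0.16, or -0.12 without L1. They were high in L1, with a mean deviation of 0.51, and lowest in L3 at -0.32. Initiation factors had a positive value at 26 of 39 genes (median 0.11), elongation and termination factors at 6 of 9 (median 0.14) and other genes with TOP mRNAs, some of them also factors of the lists before, at 16 of 21 (median 0.10). In the last list L3 at 0.14 and H3 at 0.11 were the highest birds and H1 at -0.24 the lowest. None of these 4 lists had a gene at an unadjusted p under 0.05, against 2.02% of all genes upward and 1.22% downward. The r of their mean deviation with that of the ribosomal protein genes was 0.78 for mitochondrial ribosomal proteins and 0.84 for initiation factors. It was 0.33 for elongation and termination factors and 0.62 for other TOP mRNAs, each described over the same libraries.

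Among the genes that build ribosomes or control their number, ribosome biogenesis factors had a positive log2 FC at 27 of 44 genes (median 0.06), RNA polymerase I and its factors at 6 of 10 (median 0.00484), the TOR pathway at 15 of 23 (median 0.11) and the MYC family at 4 of 9 (median -0.00272). *RRN3*, the initiation factor of RNA polymerase I, had the smallest p of these lists, with 105, 52.1 and 69.0 CPM in birds L1 to L3, against 47.0, 46.2 and 55.4 CPM in birds H1 to H3, and a log2 FC of 0.61 (SE 0.28, unadjusted p = 0.0629). The S6 kinase list, of 10 symbols, had a positive value at 2 of 8 genes tested (median -0.08). Its mean deviation was lowest in L1 at -0.39 and highest in H2 at 0.38, the reverse of the ribosomal protein genes. Kinases driven by TOR were not set apart within this list. Nascent chain and quality control factors had 9 of 19 positive (median -0.12). No gene of these lists passed adjustment or had an unadjusted p under 0.05. The r with the mean deviation of the ribosomal protein genes was 0.82 for ribosome biogenesis, 0.88 for RNA polymerase I and 0.77 for the TOR pathway. It was -0.51 for the MYC family, -0.95 for the S6 kinases and -0.02 for nascent chain and quality control factors.

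Markers of cells in the jejunal wall also differed between the birds, and their part in the ribosomal protein values was not tested. The 10 smooth muscle markers summed to 5041 to 19941 CPM in the low-FCR birds and 6398 to 13122 CPM in the high-FCR birds, with L1 highest of all, and their mean deviation had an r of 0.67 with that of the ribosomal protein genes over the 6 birds. Enteric neuron markers summed to 15.9 to 60.9 CPM in the low-FCR birds and 15.4 to 25.02 CPM in the high-FCR birds (r 0.68), and genes of the early response to handling to 2518 to 10041 CPM in the low-FCR birds and 2312 to 6593 CPM in the high-FCR birds (r 0.73). T-cell markers had a lower mean in the low-FCR group at 10 of 10 genes, where 6887 of all 14282 genes tested had a negative log2 FC. Among these markers was *CD4* with 18.1, 54.6 and 29.5 CPM in birds L1 to L3, against 64.2, 60.7 and 97.6 CPM in birds H1 to H3, and a log2 FC of -1.12 (SE 0.40, unadjusted p = 0.0216). The T-cell markers summed to 684 to 1317 CPM in the low-FCR birds and 1123 to 1975 CPM in the high-FCR birds, with L1 lowest and H3 highest (r -0.51). B and plasma cell markers summed to 1055 to 2525 CPM in the low-FCR birds and 1157 to 3922 CPM in the high-FCR birds (r -0.65) and macrophage markers to 709.6 to 1155 CPM in the low-FCR birds and 744 to 1394 CPM in the high-FCR birds (r -0.27). These r values describe 6 birds whose lists come from the same libraries.

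Absorptive enterocyte markers summed to 8341 to 18070.4 CPM in the low-FCR birds and 4651 to 16882 CPM in the high-FCR birds, with an r of 0.03 with the ribosomal protein genes. Their log2 FC was positive at 9 of 12 genes, against 51.8% of all genes tested. Their mean deviation was highest in H1 at 0.89 and lowest in H3 at -1.34. The gene of this list with the smallest p, the brush-border peptidase gene *ANPEP*, had 4224, 2193 and 2164 CPM in birds L1 to L3, against 1885, 1429.7 and 1176 CPM in birds H1 to H3. Goblet cell markers summed to 374 to 2132 CPM in the low-FCR birds and 241 to 990.0 CPM in the high-FCR birds (r 0.43). Markers of proliferating crypt cells, where ribosome production is high, had a lower mean in the low-FCR group at 18 of 18 genes (median log2 FC -0.43). Over all 14282 genes tested, 6887 had a negative log2 FC. The mean deviation of these markers was -0.26, 0.21 and -0.51 in birds L1 to L3, against -0.33, 0.47 and 0.42 in birds H1 to H3, so the groups overlapped. They summed to 762 to 1224 CPM in the low-FCR birds and 846 to 1412 CPM in the high-FCR birds (r -0.34). Crypt base and stem cell markers summed to 274 to 454 CPM in the low-FCR birds and 279 to 668 CPM in the high-FCR birds (r -0.32), fibroblast markers to 2142 to 5580.4 CPM in the low-FCR birds and 1759.5 to 4234 CPM in the high-FCR birds (r 0.08) and red blood cell markers to 96.8 to 108 CPM in the low-FCR birds and 60.7 to 77.1 CPM in the high-FCR birds (r 0.61), with 1 of the red cell genes listed at 0 in all birds. None of these marker genes passed adjustment. *CD4*, *CD28*, *ANPEP*, *TFF2*, *STMN2*, *HBA1* and *ALAS2* had an unadjusted edgeR p under 0.05, where 3.24% of all genes tested were under it. These were 2 of 10 T-cell genes tested, lower in the low-FCR group, and genes higher there: 1 of 12 absorptive enterocyte, 1 of 4 goblet cell, 1 of 7 enteric neuron and 2 of 2 red cell genes. The other marker lists had no such gene. The log2 FC was positive at 4 of 4 goblet cell, 9 of 10 smooth muscle, 6 of 7 enteric neuron, 6 of 8 fibroblast, 2 of 2 red cell and 8 of 10 early response genes. It was positive at 1 of 9 macrophage, 2 of 7 B and plasma cell and 3 of 7 crypt base and stem cell genes. Transcripts of the mitochondrial genome took between 8.99% and 14.2% of the counts, with 14.2%, 13.8% and 8.99% in birds L1 to L3, against 10.0%, 11.9% and 13.1% in birds H1 to H3. The mean deviation of the 17 tested genes of that genome had an r of 0.65 with that of the ribosomal protein genes.

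The genes whose log2 CPM over the 6 birds was most like the mean of the ribosomal protein genes were *ELOC* (r 0.996), *RPL26L1* (0.994), *STRN* (0.992), ENSGALG00000050552 (0.989) and *NDOR1* (0.986), and without L1 these values were 0.989, 0.993, 0.992, 0.989 and 0.972. *ELOC*, which encodes elongin C, had 80.3, 49.7 and 54.5 CPM in birds L1 to L3, against 46.0, 43.6 and 60.8 CPM in birds H1 to H3. *STRN*, which encodes striatin, had 65.9, 25.9 and 32.8 CPM in birds L1 to L3, against 24.5, 22.3 and 36.4 CPM in birds H1 to H3. Both had L1 highest, H3 next and H2 lowest, the order of birds in the mean of the ribosomal protein genes. Altogether 359 genes outside the set had an r above 0.9 with its mean over these 6 birds.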

How the data were processed

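The material was 6 jejunal libraries, 1 for each of 3 low-FCR birds and 3 high-FCR birds. For these files the authors ran Cutadapt 1.9.1 for trimming, HISAT2 2.0.1 for mapping to GRCg6a and HTSeq 0.6.1 for the deposited counts of each Ensembl gene. The deposited FPKM follow from those counts, exonic size and total count to within 0.005 FPKM. Cufflinks 2.2.1, named in the submitters' processing notes, was not used here. Strand and overlap settings and the annotation release were not given in the sources used here, so overlapping and antisense genes cannot be told apart.

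Tests used edgeR 4.0.16 in R 4.3.3, with TMM factors, a quasi-likelihood F test and the Benjamini-Hochberg method across the 14282 genes that averaged 0.5 FPKM or more. SE is the unshrunk log2 FC, taken without sign, over the square root of F. Deviations used log2 CPM with a prior count of 0.5, and size classes used genes of at least 20 CPM. Alternatives changed the scaling, the filter (none, or a mean of 5 FPKM), the tool (DESeq2 1.42.0, or limma 3.58.1 on log2(FPKM + 0.5) and log2(FPKM + 1)), a block for the replicate number, the group of H3, a bird-number term, and the birds included. Offsets by exonic size, limma-voom and a fit without both L1 and H3 were chosen after seeing the data. The fit was tested on simulated data.

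The genes and lists were chosen with earlier results of these data known. Genes named were the 4 with the highest FPKM in each subunit, the 5 with the smallest p in each direction (only 1 was lower), the P stalk and a set of well-known members, the 3 with the largest and the 3 with the smallest SD, up to 2 of each other list by smallest p, and the 5 genes most alike. *RPL17*, *RPL37*, *RPS27*, *RPL26*, *RPS20*, *RPS2*, *GNB2L1*, *RPSAP58* and rows without a symbol were named after their values had been seen. Some genes that this rule covers are not reported here. No library was identical to another. Promoter and protein sequences were not analysed here.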

Additional observations from a re-analysis of the deposited data

How the results depend on the processing

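No gene of the set passed adjustment under any of the 21 alternatives; of all genes tested, 8 passed with DESeq2, 2 with the replicate number as a block and 0 with the others. Of 588 values of 28 named genes under them, 568 kept their direction, 20 changed sign and 0 passed adjustment. The count of genes at an unadjusted p under 0.05 was 0, but 1 (*RPS27L*) with no filter (3.56% of all genes), 1 (*RPS27L*) with DESeq2 (4.09%), 2 (*RPS20* and *RPS28*) with H3 as low-FCR (2.18%) and 0 to 1 with each bird left out (2.05% to 9.91%). The count of genes with groups that did not overlap was 0, but 40 with H3 as low-FCR (9.71% of all genes), 43 without L1 and H3 (22.9%), 1 with offsets by exonic size (6.66%) and 0 to 40 with each bird left out: 1 without L1 (12.5%), L3 (15.4%) or H1 (14.7%), 11 without L2 (27.4%), 0 without H2 (12.9%) and 40 without H3 (13.9%). The median log2 FC of 0.26 was 0.15 with total-count scaling and 0.15 with limma, where the median of all genes was -0.08 and -0.09, so that the set lay 0.23 and 0.25 above it. The median was 0.37 with the bird-number term, which sets apart H2 and H3, the birds with shorter numbers. That fit therefore compared the low-FCR birds with H1 alone. With each bird left out the median was 0.07 to 0.41, and the difference in the share of counts was 0.161 to 0.718 percentage points. *RPL23* changed sign with total count (-0.000735) and with the offsets (-0.00234), *RPL17* with total count (-0.044), both limma fits (-0.045 and -0.045) and the offsets (-0.025), and *RPL37* with total count (-0.00179). *RPS6* changed sign with H3 as low-FCR (0.092), with the bird-number term (0.13) and without L1 and H3 (0.26). With each bird left out, the log2 FC ran from -0.11 to 0.47 for *RPL19*, -0.17 to 0.19 for *RPS6*, -0.061 to 0.31 for *RPL22*, -0.055 to 0.81 for *RPS21*, -0.10 to 0.27 for *RPL17* and -0.043 to 0.20 for *RPL37*. The cause of these shifts was not tested. Offsets, limma-voom and the fit without L1 and H3 were chosen after seeing the data.

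The deviations of low-FCR and high-FCR birds with the same replicate number correlated at 0.15, 0.14 and 0.00 over genes. Those of birds with different numbers correlated at -0.21 to 0.09. Whether the replicate numbers pair the birds was not tested. With the replicate number as a block, 1 gene of the set (*RPS27L*, unadjusted p = 0.00722, adjusted p = 0.997 by edgeR) was under an unadjusted p of 0.05, against 3.87% of all genes, 0 passed adjustment, against 2 of the 14282 genes, and the median log2 FC was 0.25. With 3 birds a group, leaving out 1 bird moves the size of these differences, while counting error is small at this abundance. *RPL3L*, at 1 to 6 counts, is limited by depth.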

Other observations

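Some ribosomal protein genes lie close together on GRCg6a. *RPL23* and *RPL19* are 69.3 kb apart on chromosome 27, where L1 was 1.16 times the mean of the other 5 birds for *RPL23* and 1.83 times for *RPL19*. *RPS19BP1* and *RPL3* are 97.3 kb apart on chromosome 1, where the ratio of L1 was 1.36 for *RPS19BP1* and 1.49 for *RPL3*. The closest pair was *RPL3L* and *RPS2*, 2.97 kb apart on chromosome 14, where *RPL3L* had 1 to 6 counts per bird and *RPS2* 679, 583 and 485 CPM in birds L1 to L3, against 421, 545 and 588 CPM in birds H1 to H3. These pairs were chosen after their values had been seen.

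The W copies of L17 were not alike. Beside the W gene with 1370 counts in L1, another W gene described as L17-like (ENSGALG00000041500) had 19 counts in L1, 1 count in H2 and 0 in the other birds.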
